A study of Mus musculus with 25 samples.

Results

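Cells sorted for a red fluorescent reporter from the injured mouse spinal cord were compared with whole tissue from the injury site, both taken 1 month after the injury. The comparison uses 6 of the 25 libraries of the series, chosen by their labels alone. The 3 sorted libraries were labelled astrocyte and came from mice of genotype GFAP-Cre-/+:R26-tdT-/+, in which a Gfap-driven recombinase switches on tdTomato in every cell that makes or once made it and in that cell's descendants. Those cords were digested, cleared of myelin and sorted for tdTomato. The 3 tissue libraries came from the injury epicentre of C57BL/6 mice, with no digestion and no sort. Each library pooled 3 mice, per the series' design text, and all mice had a moderate contusion at T9, made with an impactor set to 60 kdyn. Sorted cells and tissue therefore differed in mouse line, digestion, myelin removal, sort and table of origin as well as in cell content, and these cannot be told apart in this design. The same pair at 3 months (2 sorted and 3 tissue libraries) was used only to test whether a difference was of the same size at both times.

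The spinal cord holds neurons, astrocytes, myelinating oligodendrocytes and their precursors, microglia, ependymal cells that line the central canal, and vessels. A contusion adds blood-borne cells and a scar of fibroblasts and reactive astrocytes. Gfap encodes the intermediate filament of astrocytes, but its promoter is also active in neural stem and progenitor cells during development, so a Gfap-driven reporter can mark other descendants of those cells. Enzymatic digestion and sorting are known to switch on immediate early genes, which are transcribed within minutes of a stimulus without new protein synthesis. Bulk libraries measure the RNA of a mixture, so fewer cells of a type and less RNA per cell of that type cannot be told apart.

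Totals were 34387984 to 50211071 counts in sorted libraries and 15423131 to 18367753 in tissue. Although shallower, tissue had a count in more genes (26964 to 27863, against 21160 to 23628 in sorted libraries). The replicates of sorted cells varied more among themselves, with a common biological coefficient of variation of 0.452 in sorted libraries and 0.0721 in tissue. No 2 libraries agreed within sampling noise, so each was counted as 1 replicate. Mitochondrial genes took 1.76% to 1.95% of sorted counts and 2.94% to 3.36% of tissue counts. Counts of 4 Y-linked genes summed to 0 to 6 in a sorted library and 0 to 3 in a tissue library, and Xist was listed at 0 in all 6. Xist is entered in 2 rows of each table, and how reads shared by 2 rows were counted is not given in the sources used here, so that 0 is uncertain.

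The 2 kinds of sample differed across most of the transcriptome. Of 20522 genes tested, 11805 (57.5%) passed an adjusted p of 0.05, 5974 (29.1%) higher and 5831 (28.4%) lower in sorted cells. Calls of at least 4-fold numbered 1492 higher (7.27%) and 1900 lower (9.26%). The 3 sorted libraries lay wholly above the 3 tissue libraries for 6688 genes (32.6%) and wholly below them for 7422 (36.2%). The median log2 difference over all tested genes was -0.05, so the counts and medians of gene groups given below are read against about 3 in 10 genes called in each direction and a median near 0. All levels are counts per 1000000 counts of the library (CPM), after scaling for composition, all differences are sorted minus tissue on the log2 scale with their standard error (SE), and each p is from edgeR's quasi-likelihood test with Benjamini-Hochberg adjustment over all genes tested. The fit shares 1 estimate of spread per gene between both kinds, although sorted libraries varied more.

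The defining genes of mature astrocytes were lower in the sorted libraries than in tissue, against their label. Of the 34 listed mature astrocyte genes, 31 were lower and 2 higher, with a median log2 difference of -2.08. Aqp4, the water channel of astrocyte endfeet, had 64.4, 86.9 and 72.5 CPM in sorted libraries, against 1207, 1182 and 1075 CPM in tissue. Aldh1l1, a folate enzyme used as a pan-astrocyte marker, had 7.40, 4.79 and 10.2 CPM in sorted libraries, against 111, 104 and 104 CPM in tissue. Its log2 difference was -3.84 ± 0.24 (edgeR adjusted p = 5.19e-06), and no sorted library came within reach of the tissue values for either gene. Slc1a2 and Slc1a3, the glutamate transporters GLT-1 and GLAST, were lower by less (log2 differences -1.91 ± 0.07 and -0.75 ± 0.07). The calcium-binding protein gene S100b had a log2 difference of -2.17 ± 0.08. Car14, a carbonic anhydrase gene, had the most negative log2 difference of the list, -5.16 ± 0.12. In the other direction, the glial transcription factor gene Sox9 had 121, 96.9 and 92.3 CPM in sorted libraries, against 82.9, 74.7 and 74.7 CPM in tissue, a log2 difference of 0.42 ± 0.11 (edgeR adjusted p = 0.0125), and F3, which encodes tissue factor, was higher by 0.68 ± 0.13 log2 units. The call of Sox9 was lost without tissue replicate 2 or 3 (edgeR adjusted p = 0.080 and 0.0795). The 1 member that was not called was Gpc5 (-0.41), named after its values were seen. The count of lower genes stayed between 31 and 32 under the 15 alternative settings.

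Genes of reactive astrocytes moved in both directions. Of 36, 17 were lower, 8 higher and 11 not called (median log2 difference -0.42). Gfap had 199.95, 233 and 255 CPM in sorted libraries, against 9193, 8514 and 8178 CPM in tissue, the largest tissue level of the list and a log2 difference of -5.23 ± 0.12 (edgeR adjusted p = 6.11e-08). Lcn2, an iron-binding protein of reactive astrocytes that neutrophils also make, had 3.01, 2.21 and 3.13 CPM in sorted libraries, against 157, 178 and 133 CPM in tissue. All 3 sorted libraries were below 4 CPM. B3gnt5, a glycosyltransferase gene, was instead higher by 4.12 ± 0.18 log2 units, and so was Cd14, a lipopolysaccharide co-receptor that microglia and macrophages also express, with 254, 361 and 419 CPM in sorted libraries, against 34.01, 39.6 and 30.5 CPM in tissue.

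Genes of oligodendrocyte precursors were higher without exception. All 19 listed genes were higher, 16 of them by at least 4-fold, with a median log2 difference of 3.76 and no overlap between sorted and tissue libraries for any of them. Summed over the list, precursor genes had 21010 to 22600 CPM in sorted libraries and 2065 to 2165 CPM in tissue, while the mature astrocyte list summed to 4894 to 5535 CPM in sorted libraries and 16730 to 18410 CPM in tissue. Pdgfra, the growth factor receptor that defines these precursors, had 2806, 2621 and 2508 CPM in sorted libraries, against 63.99, 82.4 and 66.8 CPM in tissue. The proteoglycan NG2 gene Cspg4 had 1097, 1073 and 1073 CPM in sorted libraries, against 62.4, 69.3 and 58.8 CPM in tissue. Vcan, the proteoglycan versican and the member with the largest difference (log2 difference 5.64 ± 0.09), had 2246, 2016 and 2107 CPM in sorted libraries, against 43.4, 45.3 and 38.98 CPM in tissue. Ptprz1, a receptor phosphatase of glia, was the most abundant, at 2984, 2791 and 2714 CPM in sorted libraries, against 150.2, 138 and 146 CPM in tissue. The lineage transcription factor genes Olig1, Olig2 and Sox10 were higher by 3.07 ± 0.07, 3.68 ± 0.07 and 1.84 ± 0.08 log2 units. Sox10 is expressed in mature oligodendrocytes as well. On a scale of CPM per kb of exon, which allows genes to be compared with each other, sorted libraries had 264 ± 15.00 for Pdgfra, 90.6 ± 1.18 for Cspg4, 54.4 ± 6.62 for Gfap and 11.97 ± 1.83 for Aqp4 (SD, n = 3 each). Per kb of exon, Pdgfra thus stood above Gfap and Aqp4 in sorted libraries, whereas in tissue Gfap was at 2046 ± 123 and Pdgfra at 7.09 ± 0.989.

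**Figure D1:**
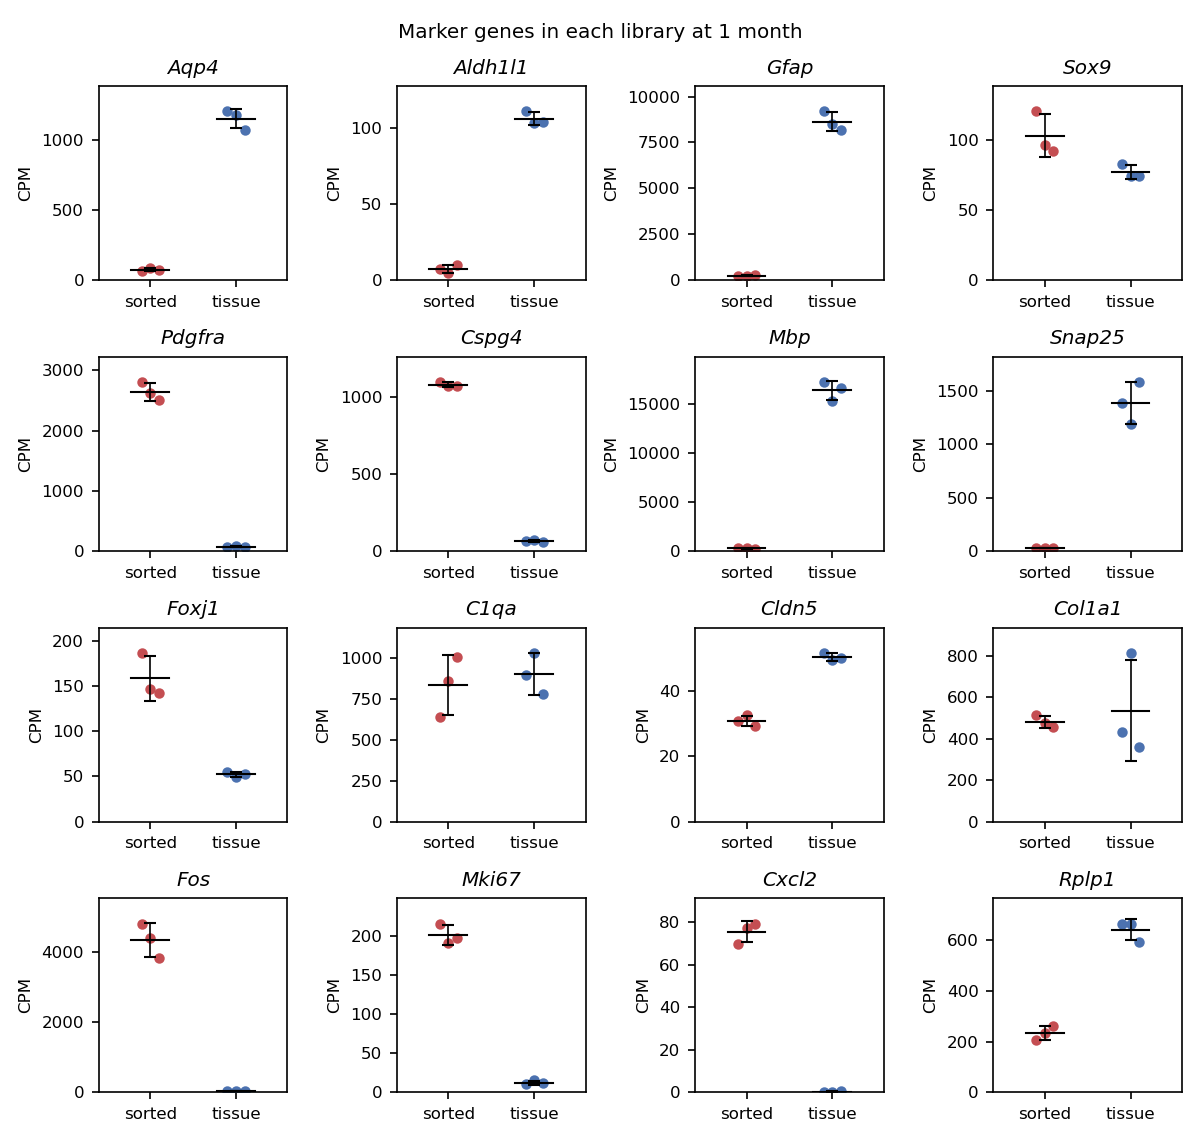
CPM (vertical axis, from 0) of 16 genes in the 3 sorted libraries (left, red) and the 3 tissue libraries (right, blue) at 1 month; horizontal lines are means and bars are SD. Aqp4, Aldh1l1, Gfap, Mbp and Snap25 are near 0 in sorted libraries and high in tissue, Pdgfra, Cspg4, Fos, Mki67 and Cxcl2 are the reverse, Foxj1 is higher in sorted libraries but well above 0 in tissue, and C1qa and Col1a1 overlap.

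Further along the same lineage, the direction turned. Of 12 genes of differentiating oligodendrocytes, 6 were higher, 4 lower and 2 not called (median log2 difference 0.57). Gpr17, a receptor of newly committed cells, had 832, 1037 and 935 CPM in sorted libraries, against 85.9, 73.7 and 67.3 CPM in tissue, and the sialidase gene Neu4 was higher by 4.44 ± 0.09 log2 units. Myrf, the transcription factor that starts the myelin programme, was lower (log2 difference -2.54 ± 0.11), and Bcas1, a marker of cells that are beginning to myelinate, was lower (log2 difference -1.15 ± 0.07). Of 23 genes of myelinating oligodendrocytes, 22 were lower, 18 of them by at least 4-fold, and none higher (median log2 difference -4.40). Mbp, a major protein of myelin, had 264, 327 and 227 CPM in sorted libraries, against 17223, 15334 and 16651 CPM in tissue. Hapln2, a protein of the node of Ranvier, had 1.49, 0.430 and 0.0839 CPM in sorted libraries, against 156 to 171 CPM in tissue. Myelin was removed before the sort, and its part in these values was not tested.

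Neuronal genes had the lowest median of all lists. Of 27, 26 were lower, 25 of them by at least 4-fold, and none higher (median log2 difference -5.70), and the exception was Map2, a microtubule protein gene named after its values were seen, at 0.04. Snap25, a synaptic vesicle fusion protein gene, had 24.5, 24.4 and 31.5 CPM in sorted libraries, against 1392, 1195 and 1585 CPM in tissue. Rbfox3, which encodes the nuclear antigen NeuN, had 2.19, 0 and 0 CPM in sorted libraries, against 114, 94.5 and 121 CPM in tissue, so that its sorted counts came from replicate 1 alone. The snoRNA host gene Snhg11, the most abundant member in tissue, was lower (log2 difference -6.45 ± 0.24). Slc6a5, the glycine transporter of inhibitory neurons, had no count in any sorted library and 159 to 238 CPM in tissue, so that it was at least 8040-fold lower, with the sorted level set at the 3 counts over the group that a count of 0 allows.

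Absence of this kind was widespread and mostly one-sided. A total of 2060 genes had no count in the 3 sorted libraries and a count in all 3 of tissue, 707 of them coding, whereas 61 genes had no count in tissue and a count in all 3 sorted libraries, 21 of them coding. Slc6a5 led the 10 coding genes with the most negative fitted differences at 20 CPM or more. Others among the 10 were Lamp5 (at least 4270-fold lower), a membrane protein of inhibitory neurons, the serotonin receptor Htr2c (2490-fold), the auxiliary AMPA receptor subunit Cacng2 (2460-fold), the neuropeptide precursor Tac2 (1520-fold), the acetylcholine vesicle transporter Slc18a3 (1280-fold), the NMDA receptor subunit Grin2a (1120-fold), the transcription factor Ebf2 (981-fold) and the GTPase activating protein gene Arhgap36 (846-fold), each as a lower bound on the same floor. Tmem125, a membrane protein gene, was at 0 in every sorted library and at 42.1 to 43.6 CPM in tissue (at least 1770-fold lower). Floors and intervals of this kind cover counting error only.

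Ependymal genes were higher in sorted cells. All 17 were higher, 13 by at least 4-fold, with a median log2 difference of 3.06 and no overlap of libraries. Foxj1, the transcription factor that sets up motile cilia, had 187, 146 and 142 CPM in sorted libraries, against 55.3, 49.3 and 52.4 CPM in tissue and differed by 1.60 ± 0.12 log2 units. Hydin, a component of the ciliary axoneme, had 95.8, 64.5 and 73.7 CPM in sorted libraries, against 2.62, 2.45 and 2.58 CPM in tissue, the largest difference of the list (log2 difference 4.93 ± 0.19). In CPM per kb of exon, Foxj1 was at 60.3 ± 9.37 in sorted libraries and 19.9 ± 1.16 in tissue. Genes of neural progenitors showed a mixed picture, with 10 of 16 higher, 2 lower and 4 not called (median log2 difference 1.70). Notch1, the receptor that holds progenitors undifferentiated, was higher by 2.73 ± 0.09 log2 units. The homeobox gene Gsx1, which was among the largest rises of all coding genes, differed by 6.02 ± 0.24 log2 units. The growth factor receptor Egfr was lower (log2 difference -2.50 ± 0.25), and the RNA-binding protein gene Msi1 was lower (log2 difference -0.29 ± 0.07).

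Microglial genes were split between the directions, by small amounts. Of 19 genes of homeostatic microglia, 5 were higher, 4 lower and 10 not called, with a median log2 difference of 0.20 and no difference of 4-fold or more, and the list summed to 5102 to 7850 CPM in sorted libraries and 5339 to 6990 CPM in tissue. C1qa, the first chain of complement C1q, had 641, 859.8 and 1005 CPM in sorted libraries, against 897, 1034 and 779 CPM in tissue. Its log2 difference was -0.11 ± 0.17 (edgeR adjusted p = 0.591), the groups overlapped, and without sorted replicate 1 the difference was 0.05. Tmem119, a membrane protein specific to microglia in the brain and cord, had 37.6, 38.8 and 43.1 CPM in sorted libraries, against 56.00, 62.2 and 49.9 CPM in tissue, a log2 difference of -0.49 ± 0.11 (edgeR adjusted p = 0.00438). Aif1, which encodes Iba1, and the signalling adaptor Tyrobp were lower (log2 differences -0.83 ± 0.21 and -0.49 ± 0.17). The lysosomal protease gene Ctss was higher by 0.49 ± 0.17 log2 units. The call of Ctss was lost on leaving out sorted replicate 2 or 3 or any tissue replicate (edgeR adjusted p = 0.0558 to 0.196), and that of Tyrobp without sorted replicate 1 or tissue replicate 1 or 2 (0.0594 to 0.109). Leaving out tissue replicate 1, 2 or 3 left 1 gene higher each time, leaving out sorted replicate 2 or 3 left 2, and without tissue replicate 2 there were 2 lower. In a fit over all 17 sorted and tissue libraries none of the 19 was called in either direction. Sorted replicate 1 was lowest and replicate 3 highest for C1qa, Ctss and Tmem119.

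Other myeloid lists leaned lower or not at all. Of 16 genes of activated phagocytes, 4 were higher, 4 lower and 8 not called (median log2 difference 0.04, and between -0.12 and 0.18 over the alternatives). Of the 16, 1 was higher without tissue replicate 1 or 3 and 2 without tissue replicate 2 or sorted replicate 2 or 3, while 7 were lower without sorted replicate 3. The tetraspanin Cd9, also made by precursors, was higher by 1.27 ± 0.09 log2 units, while the fatty acid carrier Fabp5 and the protease cathepsin B (Ctsb) were lower (log2 differences -1.94 ± 0.13 and -0.60 ± 0.13). Of 14 monocyte and macrophage genes, 6 were lower, 1 higher and 7 not called (median log2 difference -1.45), and 10 were lower without sorted replicate 1 and 3 without tissue replicate 2 or 3. Lyz2, the lysozyme of myeloid cells, had 1043, 1236 and 1452 CPM in sorted libraries, against 1856, 2675 and 1918 CPM in tissue. The phagocyte oxidase subunit gene Cybb was the 1 higher member (log2 difference 0.77 ± 0.20). Its call was lost without tissue replicate 1 or 3 (edgeR adjusted p = 0.0778 and 0.0795). Chil3, a secreted lectin of alternatively activated macrophages, had 0.108, 0 and 0 CPM in sorted libraries, against 2.82, 4.56 and 4.04 CPM in tissue. Its sorted counts, too, came from replicate 1 alone.

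Vessel and scar genes were lower to differing degrees. Of 22 endothelial genes, 12 were lower, 3 higher and 7 not called (median log2 difference -0.58). Cldn5, the tight junction protein of the blood-brain barrier, had 30.8, 32.4 and 29.3 CPM in sorted libraries, against 51.6, 49.3 and 50.03 CPM in tissue, and the angiogenic factor Egfl7 was lower (log2 difference -1.92 ± 0.16) and the membrane protein Itm2a was lower (log2 difference -0.94 ± 0.08). The receptors Flt1 (log2 difference 0.39 ± 0.12) and Kdr (log2 difference 0.70 ± 0.17) and the lipid transporter Mfsd2a (log2 difference 0.68 ± 0.13) were higher. The call of Kdr was lost without tissue replicate 1 or 3 (edgeR adjusted p = 0.0788 and 0.0535), and that of Flt1 without sorted replicate 2 or any tissue replicate (0.0575 to 0.178). In the fit over all 17 libraries, 4 endothelial genes were lower. Of 15 mural genes, 13 were lower and none higher (median log2 difference -1.95). Pdgfrb, the receptor of pericytes, had 16.01, 13.03 and 20.4 CPM in sorted libraries, against 58.95, 71.1 and 60.5 CPM in tissue, the pericyte protein vitronectin (Vtn) was lower (log2 difference -1.83 ± 0.13), and the smooth muscle myosin Myh11 had 0, 0.293 and 2.41 CPM in sorted libraries, against 20.7, 16.9 and 17.5 CPM in tissue. Sorted replicate 1 held no Myh11 count and replicate 3 the most. Of 16 fibroblast genes, 11 were lower, 2 higher and 3 not called (median log2 difference -1.52), with 4 higher without tissue replicate 2. Collagen I (Col1a1) had 512, 473 and 456 CPM in sorted libraries, against 430.1, 813 and 362 CPM in tissue and was not called (log2 difference -0.16 ± 0.27, edgeR adjusted p = 0.647). Tissue replicate 2 stood apart, and without it the difference was 0.19. The matrix Gla protein gene Mgp was lower (log2 difference -3.47 ± 0.32), and the growth factor Igf2 was lower (log2 difference -1.68 ± 0.23), while periostin (Postn), a matrix protein of scars, was higher by 2.40 ± 0.20 log2 units and collagen V (Col5a1) was higher by 1.33 ± 0.20 log2 units.

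Genes of Schwann cells, which enter injured cords from the nerve roots, split by gene. Of 12, 6 were higher and 3 lower (median log2 difference 0.47). Egr2, which is at once the regulator of Schwann cell myelination and an immediate early gene, was higher by 4.74 ± 0.13 log2 units. Drp2, Ncmap and Pmp2, genes of the myelinating Schwann cell, were lower (log2 differences -1.63 ± 0.08, -1.42 ± 0.29 and -2.07 ± 0.44).

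Blood genes were low in sorted cells. All 6 tested erythroid genes were lower (median log2 difference -4.79). The beta globin Hbb-bs, which has near-identical copies, had 7.37, 6.25 and 12.8 CPM in sorted libraries, against 237, 304 and 226 CPM in tissue, and the red cell anion exchanger Slc4a1 had no sorted count and was at least 179-fold lower. Of 11 neutrophil genes, 7 were lower and none higher. Myeloperoxidase (Mpo) had no sorted count and was at least 104-fold lower, and the calprotectin subunit S100a9 had 2.28, 0 and 0 CPM in sorted libraries, against 17.4, 31.6 and 28.2 CPM in tissue. Of 12 lymphocyte genes, 6 were lower, or 3 without any 1 tissue replicate, and none higher. Cd79b, a subunit of the B cell receptor, had 1 count over the sorted libraries and 117 over tissue, a ratio of tissue to sorted of 291 (95% exact interval 51.2 to 11600, counting error only). Jchain, the joining chain of plasma cell antibodies, was lower (log2 difference -5.80 ± 1.20), and its sorted counts came from replicate 1 alone.

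**Figure D2:**
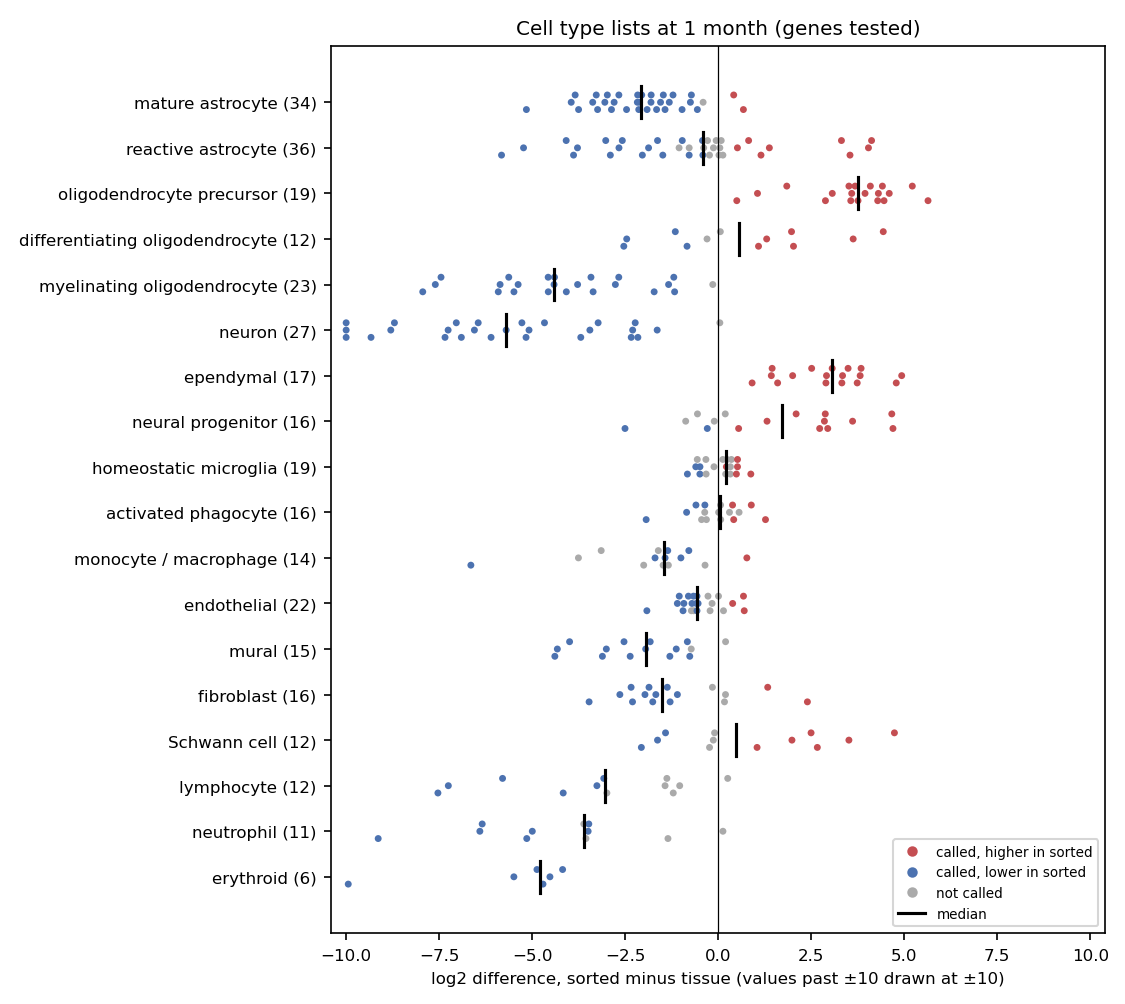
Log2 difference, sorted minus tissue, of every tested gene (points) of 18 cell type lists (rows, with the number of genes tested); red points were called higher, blue lower, grey not called, and the black line is the median. All precursor and ependymal genes lie to the right of 0, nearly all mature astrocyte, myelinating oligodendrocyte and neuron genes to the left, and reactive astrocyte and homeostatic microglia genes on both sides of it.

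Immediate early genes were among the most raised of all. Of 29, 26 were higher, 24 by at least 4-fold, and none lower (median log2 difference 3.87), with no overlap of libraries for the 26. They summed to 19710 to 24010 CPM in sorted libraries and 1413 to 1446 CPM in tissue. Fos, a subunit of the transcription factor AP-1, had 4824, 4407 and 3854 CPM in sorted libraries, against 40.7, 32.4 and 40.6 CPM in tissue. Fosb, a close relative of Fos, had 3017, 2406 and 2153 CPM in sorted libraries, against 4.03, 3.80 and 3.20 CPM in tissue and the largest difference of the list (log2 difference 9.43 ± 0.19). Egr1, a zinc-finger transcription factor, had 3504, 3602 and 2974 CPM in sorted libraries, against 59.6, 62.00 and 63.04 CPM in tissue, and Jun, the partner of Fos in AP-1, had 2664, 2363 and 2033 CPM in sorted libraries, against 94.6, 89.3 and 93.1 CPM in tissue. The 3 that were not called were Arc (0.68), Rhob (-0.09) and Npas4 (-0.34), named after their values were seen. Npas4 and Arc are known chiefly as neuronal activity genes.

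Immediate early promoters are known to carry binding sites for CREB, the factor that cyclic AMP and calcium act through, and for serum response factor. Of the 29 genes, 24 had an entry among the RefSeq promoters of GRCm38.p6, and the 250 bases before each start were searched on both strands. The core site TGACG lay in 13 of 24 (54.2%), against 17.9% of all 27025 promoters of that length. The full site TGACGTCA, which contains the core site on both strands, lay in 2 of 24 (8.33%), against 1.62%, and the CArG box of serum response factor in 1 of 24 (4.17%), against 1.40%. A match is a run of letters and not a measured binding site. The 150 bases before the start are shown for 4 of the genes with an entry, each with a large difference between sorted cells and tissue. Core sites are in capitals on either strand.
Fosb: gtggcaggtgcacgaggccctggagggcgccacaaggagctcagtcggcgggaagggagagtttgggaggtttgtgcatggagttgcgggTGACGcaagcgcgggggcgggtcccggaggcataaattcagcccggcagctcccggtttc
Fos: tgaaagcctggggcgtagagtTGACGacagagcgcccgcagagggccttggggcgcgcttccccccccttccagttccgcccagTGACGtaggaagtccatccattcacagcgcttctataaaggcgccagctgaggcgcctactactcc
Nr4a3: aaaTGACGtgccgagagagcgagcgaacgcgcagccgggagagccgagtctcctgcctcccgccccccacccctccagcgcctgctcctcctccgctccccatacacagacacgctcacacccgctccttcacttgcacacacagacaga
Nr4a1: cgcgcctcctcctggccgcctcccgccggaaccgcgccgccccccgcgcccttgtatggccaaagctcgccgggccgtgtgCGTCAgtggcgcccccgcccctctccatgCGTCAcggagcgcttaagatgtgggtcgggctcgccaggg
Fosb (chr7:19310046-19310195, minus strand) had 1 core site in this window, Fos (chr12:85473740-85473889, plus strand) 2, the nuclear receptor gene Nr4a3 (chr4:48045155-48045304, plus strand) 1 and its relative Nr4a1 (chr15:101266696-101266845, plus strand) 2. Nr4a3 and Nr4a1 were higher by 5.32 ± 0.16 and 5.21 ± 0.16 log2 units. Egr1 was higher by more than these, 5.77 ± 0.10 log2 units, but its bases are not shown, so the 4 are not a strict ranking.

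Other stress programmes were less uniform. Of 16 heat shock genes, 6 were higher, 3 lower and 7 not called (median log2 difference 0.12). The stress-induced chaperones Hspa1a and Hspa1b, near-identical copies whose reads may be shared, had 54.7, 41.7 and 44.00 CPM in sorted libraries, against 6.59, 5.78 and 5.72 CPM in tissue for Hspa1a and a log2 difference of 3.18 ± 0.24 for Hspa1b. The co-chaperone Dnaja1 was higher by 0.66 ± 0.07 log2 units. The 3 lower genes were small heat shock proteins that glia and muscle express. They were Hspb1, with 16.9, 16.96 and 18.04 CPM in sorted libraries, against 264, 229 and 221 CPM in tissue, Hspb8 (log2 difference -2.46 ± 0.11) and Cryab (log2 difference -1.23 ± 0.09). Of 17 genes of endoplasmic reticulum stress, 8 were higher and 3 lower. Ppp1r15a, a phosphatase subunit that ends translational arrest, was higher by 3.64 ± 0.12 log2 units and the chaperone Hspa5 was higher by 1.14 ± 0.06 log2 units, while the 3 lower genes were targets of the factor ATF4, Chac1 (log2 difference -2.10 ± 0.27), Ddit3 (log2 difference -0.77 ± 0.13) and Asns (log2 difference -0.56 ± 0.13). Of 16 p53 targets, 11 were higher and 2 lower, and 7 were higher without any 1 tissue replicate. Cdkn1a, the cell cycle inhibitor p21, had 139, 149 and 146 CPM in sorted libraries, against 59.4, 61.4 and 61.7 CPM in tissue, and the receptor Eda2r was higher by 3.10 ± 0.20 log2 units, while Phlda3 and Sesn1 were lower (log2 differences -0.72 ± 0.11 and -0.25 ± 0.08).

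Cytokine and NF-kB response genes were higher, 22 of 26 of them and none lower (median log2 difference 2.18). Cxcl2, a neutrophil-attracting chemokine, had 69.9, 77.2 and 79.4 CPM in sorted libraries, against 0.202, 0.175 and 0.505 CPM in tissue and the largest difference (log2 difference 7.95 ± 0.23). The cytokines Il1b and Tnf had 117, 173 and 238 CPM in sorted libraries, against 1.34, 2.69 and 1.91 CPM in tissue for Il1b and 61.2, 111 and 101 CPM in sorted libraries, against 1.28, 2.22 and 1.18 CPM in tissue for Tnf. Nfkbiz, a nuclear regulator of NF-kB, was the most abundant of the list in sorted cells, at 388, 419 and 435 CPM in sorted libraries, against 18.1, 20.7 and 18.5 CPM in tissue. Ccl3, a chemokine of microglia and macrophages, had 119, 132 and 129.5 CPM in sorted libraries, against 21.7, 27.00 and 20.1 CPM in tissue. The homeostatic microglia list, which summed to similar levels in both kinds of sample, stood at a median log2 difference of 0.20 beside these rises, and its part in them was not tested.

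All 34 tested cell cycle genes were higher, 28 by at least 4-fold (median log2 difference 2.73), under each of the 15 alternative settings. Mki67, the proliferation marker Ki-67, had 215, 191 and 197 CPM in sorted libraries, against 10.4, 15.3 and 11.6 CPM in tissue. Cenpf, a centromere protein of late cell cycle, had 72.8, 64.3 and 69.4 CPM in sorted libraries, against 3.56, 3.97 and 2.75 CPM in tissue. The libraries did not overlap for any of the 34. The precursor list, whose cells are known to divide in the adult cord, differed by a median log2 difference of 3.76 beside it, and its part in the cell cycle values was not tested.

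Matrix genes moved in both directions. Of 20 genes of chondroitin sulfate proteoglycans and tenascins, 14 were higher and 3 lower (median log2 difference 1.19). Those higher include Vcan and Ptprz1, which are in the precursor list too, so these lists are not independent of each other. The full overlap of these lists is not given here. The 3 lower members were the link proteins Hapln1 (log2 difference -2.09 ± 0.39), Hapln2 (log2 difference -7.94 ± 0.45) and Hapln4 (log2 difference -4.15 ± 0.16), which bind proteoglycans to hyaluronan. Of 17 basement membrane genes, 13 were higher and 4 lower (median log2 difference 1.02). The laminin chain Lamb1 was higher by 2.82 ± 0.14 log2 units, and perlecan (Hspg2) had 839.7, 836 and 745 CPM in sorted libraries, against 112, 154 and 117 CPM in tissue, while Sparc, the most abundant of the list, had 1442, 1593 and 1573 CPM in sorted libraries, against 2938, 3153 and 2780 CPM in tissue and Lamc3 was lower (log2 difference -1.20 ± 0.24). Of 26 genes of TGF-beta and BMP signalling, 10 were higher and 10 lower. The transcriptional repressor Skil was higher by 2.09 ± 0.11 log2 units, and the BMP receptor Bmpr1b and the inhibitor Id4, both expressed by astrocytes, were lower (log2 differences -2.62 ± 0.34 and -1.01 ± 0.11).

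Energy and protein synthesis genes were lower by small but regular amounts. Of 70 nuclear genes of oxidative phosphorylation, 68 were lower and none higher (median log2 difference -0.88). Atp5b, the beta subunit of ATP synthase, had 655, 681 and 612 CPM in sorted libraries, against 956, 882 and 1027 CPM in tissue, and the complex I subunit Ndufc1 was lower (log2 difference -1.73 ± 0.11). Of 12 mitochondrially encoded genes, 8 were lower, among them mt-Co1 (log2 difference -0.85 ± 0.09) and mt-Atp8 (log2 difference -1.63 ± 0.13), and mt-Co2 was higher by 1.18 ± 0.30 log2 units at under 8 CPM in every library, a call lost without tissue replicate 2 or 3 (edgeR adjusted p = 0.0531 and 0.0606). Of 78 ribosomal protein genes, which have many pseudogene copies, 65 were lower and none higher (median log2 difference -0.53). Rplp1, a protein of the ribosomal stalk, had 205, 236 and 262 CPM in sorted libraries, against 662, 664 and 592 CPM in tissue, and Rpl39 was lower (log2 difference -1.52 ± 0.09). In the fit over all 17 libraries 35 ribosomal protein genes were lower. The difference of a coding gene also ran with its summed exon length. Its median was -0.59 for genes under 1 kb, -0.44 at 1 to 2 kb, -0.22 at 2 to 4 kb, 0.04 at 4 to 8 kb and 0.33 above 8 kb. Ribosomal protein genes have a median exon length of 1.75 kb, and genes of the same lengths had a median log2 difference of -0.44, beside their own -0.53. For oxidative phosphorylation genes (1.81 kb) these values were -0.44 and -0.88, for precursor genes (9.65 kb) 0.33 and 3.76, and for ependymal genes (1.62 kb) -0.44 and 3.06. What length contributed to these lists was not tested. Of 4 tested histone genes, whose transcripts mostly lack a poly(A) tail, Hist1h2bc alone was called, with a log2 difference of -1.17 ± 0.12.

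**Figure D3:**
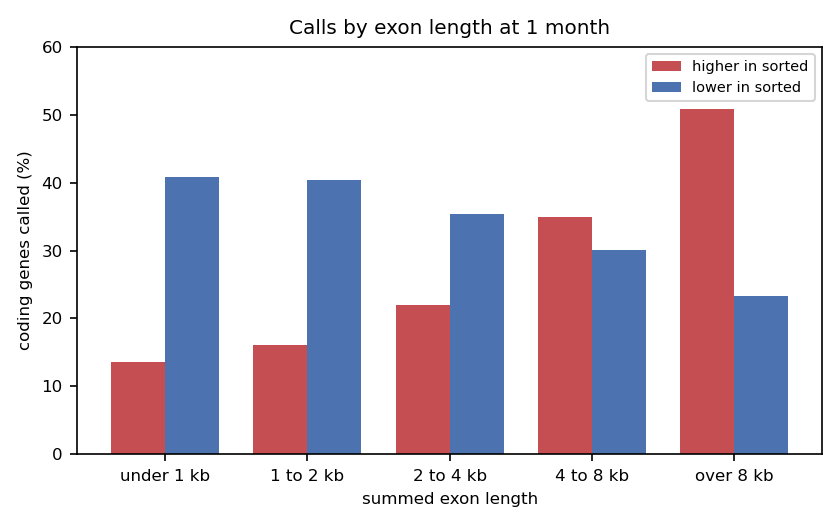
Share of tested coding genes (vertical axis, percent) called higher (left bar, red) or lower (right bar, blue) in sorted cells, by summed exon length (horizontal axis, bins in kb). Of 377 genes under 1 kb, 51 were higher and 154 lower, and of 2695 genes over 8 kb, 1369 were higher and 626 lower.

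Of 25 glycolysis and hypoxia genes, 16 were lower and 3 higher (median log2 difference -0.83). Pkm, which encodes pyruvate kinase M, had 726, 824 and 741 CPM in sorted libraries, against 1380, 1276 and 1446 CPM in tissue, and Pfkp, a platelet-type phosphofructokinase abundant in brain, was lower (log2 difference -2.03 ± 0.14). The higher 3 were Vegfa, the endothelial growth factor, with 131, 128 and 100.4 CPM in sorted libraries, against 53.2, 51.5 and 59.7 CPM in tissue, hexokinase 2 (Hk2, log2 difference 0.72 ± 0.24) and lactate dehydrogenase A (Ldha, log2 difference 0.31 ± 0.07). Sorted replicate 3 stood apart for Hk2, with 39.8, 42.5 and 76.2 CPM in sorted libraries. The call of Hk2 was lost without any 1 tissue replicate (edgeR adjusted p = 0.0991 to 0.156), and that of Ldha without tissue replicate 1 or 3 (0.0546 and 0.083). Of 24 genes of cholesterol synthesis, 12 were higher and 2 lower (median log2 difference 0.50). Hmgcs1, an early enzyme of the pathway, was higher by 0.43 ± 0.13 log2 units, while Pmvk and Tm7sf2, both further down the pathway, were lower (log2 differences -0.42 ± 0.09 and -0.72 ± 0.23). The call of Hmgcs1 was lost without tissue replicate 1 or 2 (edgeR adjusted p = 0.126 for both), and that of Tm7sf2 without tissue replicate 1 or 3 (0.0592 and 0.0527).

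Immune genes outside the cytokine list moved less. Of 27 interferon-stimulated genes, 12 were lower, 5 higher and 10 not called (median log2 difference -0.37). Without tissue replicate 2, 5 were lower, without sorted replicate 1, 7 were, and without tissue replicate 1 or 3, 3 were higher. The GTPase Irgm1 was higher by 1.75 ± 0.13 log2 units, and Ifit3 and Ifi27l2a were lower (log2 differences -1.26 ± 0.18 and -2.17 ± 0.60). Of 19 antigen presentation genes, 13 were not called, 3 were higher and 3 lower (median log2 difference -0.23). Without sorted replicate 1, 5 were higher, and 5 were lower without tissue replicate 1 and 1 without tissue replicate 2. The class I gene H2-Q4 and the peptide transporters Tap1 and Tap2 were higher by 0.91 ± 0.12, 0.76 ± 0.17 and 0.61 ± 0.12 log2 units. The class II genes H2-Aa and H2-Eb1 and the class I assembly factor Tapbp were lower. H2-Aa had 34.7, 28.4 and 10.5 CPM in sorted libraries, against 44.6, 65.4 and 61.98 CPM in tissue, highest in sorted replicate 1 and lowest in replicate 3. H2-Eb1 and Tapbp differed by -0.96 ± 0.33 and -0.35 ± 0.09 log2 units. Calls were lost for Ifi27l2a without tissue replicate 2 (edgeR adjusted p = 0.0527), for H2-Aa without tissue replicate 2 or 3 (0.0593 and 0.0518) and for H2-Eb1 without sorted replicate 2 or 3 or tissue replicate 2 or 3 (0.0574 to 0.0988). Of 15 complement genes, 8 were lower and 1 higher (median log2 difference -0.39). C3, the central component, had 89.2, 110.4 and 121 CPM in sorted libraries, against 1405, 1406 and 1103 CPM in tissue. C2, its convertase subunit, was lower (log2 difference -5.16 ± 1.01), with no count in sorted replicate 3. Sorted replicates 1 and 2 held 0.21 and 0.04 CPM of C2, scaled over the 11 libraries of both times. The receptor C5ar1 was higher by 1.32 ± 0.16 log2 units. Lysosome and lipid handling genes were 7 higher (3 without tissue replicate 1 or 3), 7 lower and 10 not called of 24, with the cholesterol exporter of the lysosome, Npc1, higher by 1.19 ± 0.06 log2 units.

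**Figure D4:**
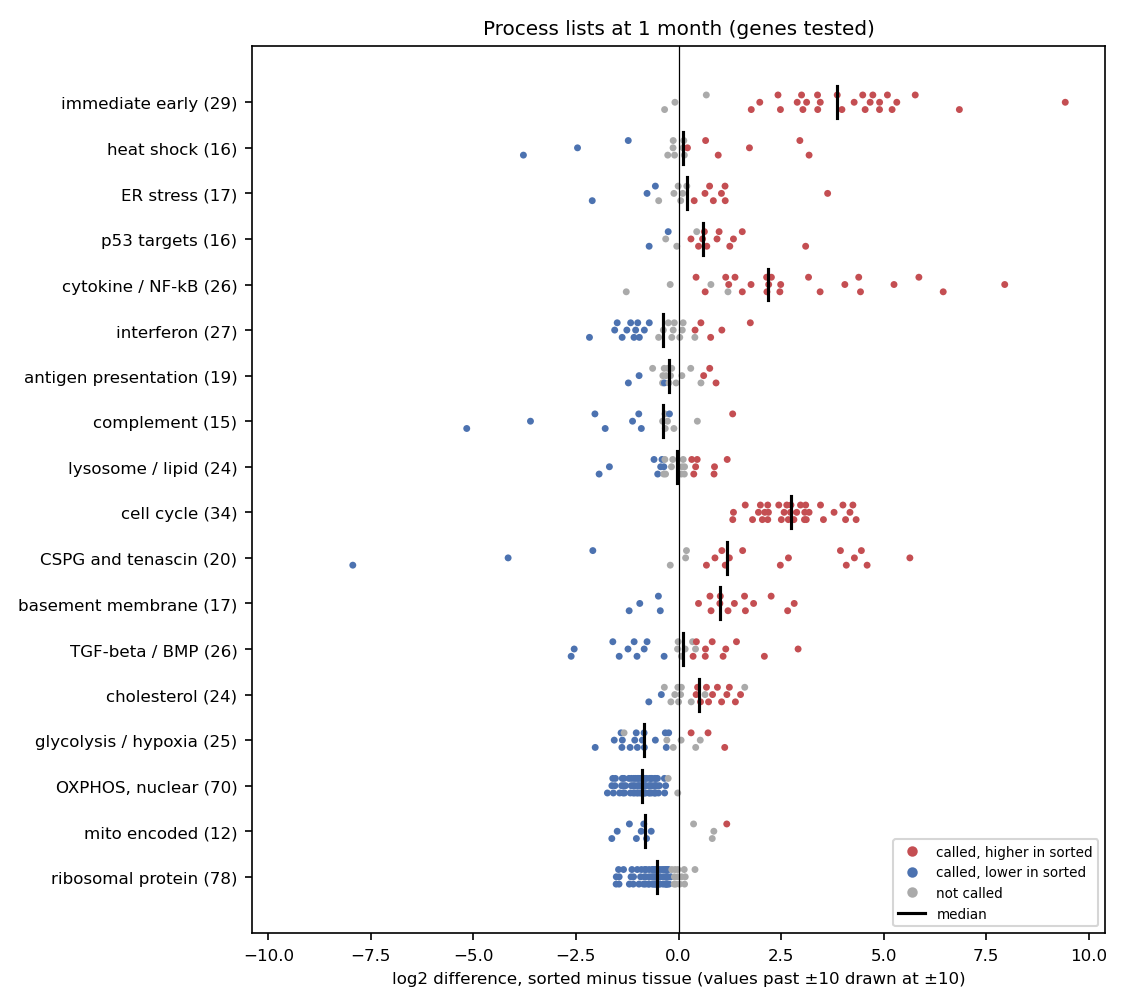
Log2 difference, sorted minus tissue, of every tested gene (points) of 18 process lists (rows, with the number of genes tested); red points were called higher, blue lower, grey not called, and the black line is the median. All cell cycle genes and most immediate early and cytokine genes lie to the right of 0, and nearly all genes of oxidative phosphorylation and most ribosomal protein genes lie to the left within 2 units.

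Among long non-coding genes, 1144 of 4939 tested were higher and 849 lower. Meg3, Rian and Mirg, transcripts of 1 imprinted cluster on chromosome 12 that neurons express, were lower (log2 differences -4.70 ± 0.21, -2.48 ± 0.14 and -5.37 ± 0.33). The nuclear transcripts Malat1 and Neat1 were higher, with 1259, 974 and 1515 CPM in sorted libraries, against 393, 547 and 436 CPM in tissue for Malat1 and a log2 difference of 1.03 ± 0.38 for Neat1, whose call was lost under 9 of the 14 alternatives that test it. The 5 long non-coding genes with the largest falls were Gm34982, with 3 counts over the sorted libraries against 3194 over tissue (ratio of tissue to sorted 2650, exact interval 905 to 12800), and Gm39571, Gm14164, Gm37111 and Gm33594, which had no sorted count and were at least 980-, 834-, 350- and 332-fold lower. The 5 with the largest rises were Gm26870, with 6294 counts over the sorted libraries against 3 over tissue (ratio of sorted to tissue 844, exact interval 289 to 4090), Gm43820 (1205 against 3, ratio 162, interval 55.2 to 785), Gm41199 (801 against 2, ratio 161, interval 44.5 to 1330), Gm42802 (log2 difference 6.61 ± 0.56) and Gm43169 (log2 difference 5.98 ± 0.69). Gm42802 lies opposite Pdgfra and Gm43169 opposite Lhfpl3, so that their reads may belong to those genes. Gm26870 overlaps a row of predicted coding genes on the opposite strand at chromosome 9, 3000282 to 3038313, and where its reads come from was not tested. Of the fallen genes, Gm14164 lies partly opposite Nrsn2, and Gm33594 overlaps Galnt5. Of the predicted coding genes, Gm10800 had 5225 counts over the sorted libraries against 1 over tissue (ratio 2100, interval 377 to 83000) and Gm16486 had 4776 against 0 (at least 640-fold higher), which placed both among the 10 largest rises. Whether such counts, nearly all from sorted libraries, are expression of the annotated genes was not tested. Zeb2, the transcription factor gene targeted elsewhere in the series, had 372, 373 and 369.8 CPM in sorted libraries, against 137, 152 and 127 CPM in tissue, and Zeb2os, a long non-coding gene inside it on the opposite strand, had 22.8, 27.2 and 28.9 CPM in sorted libraries, against 15.1, 17.4 and 13.1 CPM in tissue, log2 differences of 1.42 ± 0.08 and 0.79 ± 0.15.

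The pair at 3 months gave the same picture for most cell type lists and another for some. The difference between sorted cells and tissue itself differed between 1 month and 3 months for 3256 of 23259 genes tested (14.0%). That count was 2054 without tissue replicate 1 and 1929 without tissue replicate 2 at 1 month, 2027 without tissue replicate 3 and 5120 without sorted replicate 1 at 3 months, and 1050 with limma and a spread per group. All 19 homeostatic microglia genes, 15 of 16 activated phagocyte genes, 21 of 24 lysosome and lipid genes, 15 of 19 antigen presentation genes and 69 of 78 ribosomal protein genes had a lower difference at 1 month than at 3 months, and no member of these lists had a higher one. The phagocyte and lysosome lists have the same lowest log2 difference at 1 month (-1.94). They may share genes, so their counts are not separate results, and their overlap is not given here. For homeostatic microglia the median difference was 0.20 at 1 month and 1.97 at 3 months. Scaled over these 11 libraries, C1qa had 625, 844 and 977 CPM in sorted libraries at 1 month and 1439 and 2182 CPM at 3 months, and 913, 1046 and 791 CPM in tissue at 1 month and 383, 293 and 336 CPM at 3 months. It was thus higher at 3 months in sorted cells and lower in tissue, and the 2 movements add up in an interaction of -2.59 ± 0.28 (edgeR adjusted p = 8.08e-04). Tmem119 had an interaction of -1.93 ± 0.24 and the class I assembly factor Tapbp of -1.50 ± 0.22. In the fit over all 17 libraries, 7 of the 19 microglial genes, 7 of the 19 antigen presentation genes and none of the ribosomal protein genes passed. Without sorted replicate 3 at 3 months, 42 ribosomal protein and 9 antigen presentation genes had a lower difference at 1 month. Antigen presentation genes numbered 8 without tissue replicate 2 at 1 month and 9 without tissue replicate 3 at 3 months.

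Cell cycle genes went the other way. The difference of 20 of 34 was higher at 1 month, and none was lower, with medians of 2.73 at 1 month and 1.17 at 3 months. Mki67 had 210, 187 and 191 CPM in sorted libraries at 1 month and 58.0 and 34.4 CPM at 3 months, and 10.6, 15.5 and 11.8 CPM in tissue at 1 month and 41.4, 10.9 and 35.5 CPM at 3 months, an interaction of 3.29 ± 0.59 (edgeR adjusted p = 0.00486). Cholesterol synthesis genes shared the direction, 11 of 24 being higher at 1 month and none lower (medians 0.50 at 1 month and -0.24 at 3 months). Hmgcs1 had an interaction of 1.14 ± 0.18. Of other lists with a large difference at 1 month, 1 of 34 mature astrocyte genes, 6 of 19 precursor genes, 6 of 27 neuron genes and 1 of 17 ependymal genes passed the interaction. Their medians at 3 months were -1.89, 3.40, -6.28 and 3.11, beside -2.08, 3.76, -5.70 and 3.06 at 1 month. More genes passed among myelinating oligodendrocyte genes, 10 of 23 with a lower and 2 with a higher difference at 1 month (medians -4.40 at 1 month and -3.62 at 3 months), and among immediate early genes, 11 of 29 with a lower one and none with a higher one (medians 3.87 and 4.53). Leaving out 1 library moved several of these counts. Without tissue replicate 1 at 1 month, 13 cell cycle, 5 cholesterol and 3 neuron genes had a higher difference at 1 month, and 7 immediate early and 6 myelinating oligodendrocyte genes a lower one. Without sorted replicate 3 at 3 months, 5 mature astrocyte and 4 ependymal genes had a lower one.

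**Figure D5:**
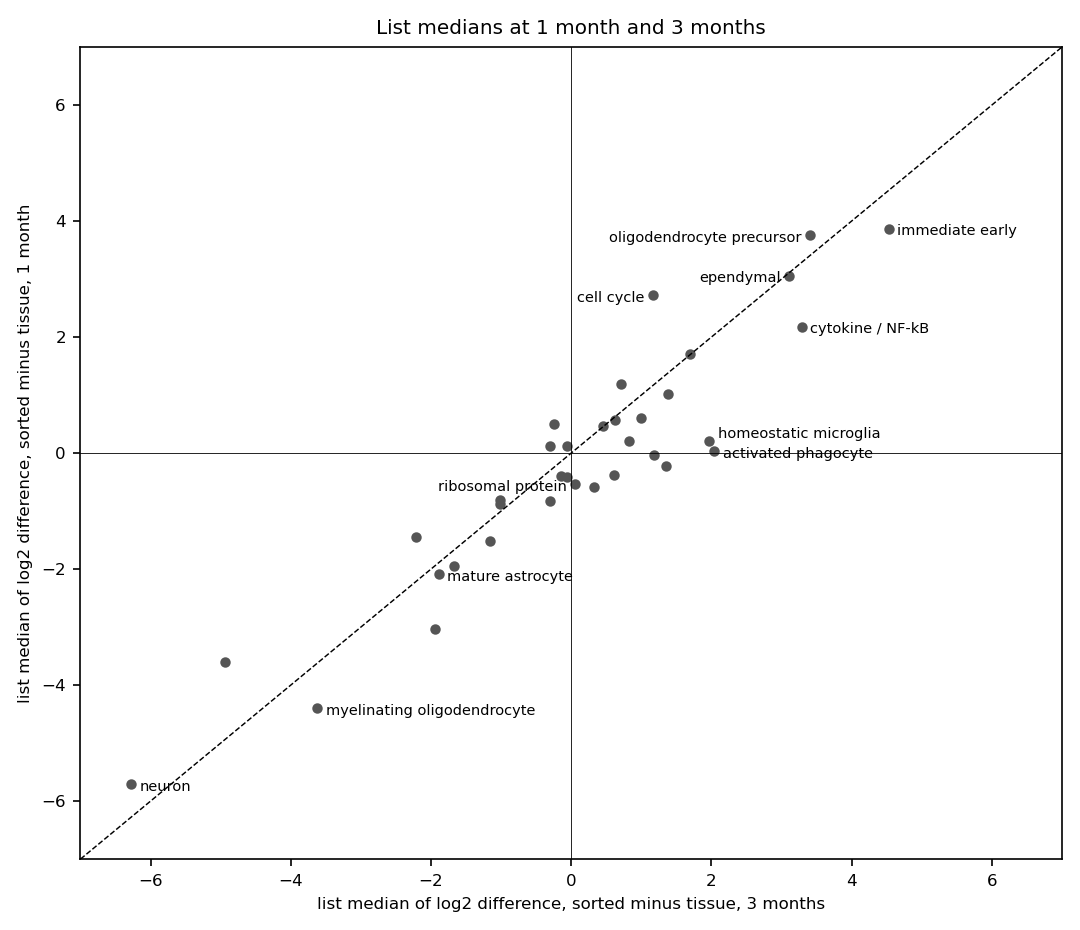
Median log2 difference, sorted minus tissue, of each list with at least 10 tested genes at 3 months (horizontal axis) and 1 month (vertical axis); the dashed line marks equal medians. Precursor, ependymal and mature astrocyte lists lie near the line, the myelinating oligodendrocyte list lies below it (-4.40 at 1 month, -3.62 at 3 months) and the neuron list above it (-5.70 and -6.28), the cell cycle list lies above it (2.73 at 1 month, 1.17 at 3 months), and the microglia and phagocyte lists lie below it (0.20 at 1 month and 1.97 at 3 months for homeostatic microglia).

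The 5 genes with the smallest interaction p lay mostly outside these lists. Ccl3 differed between sorted cells and tissue by 2.47 at 1 month and 5.71 at 3 months (interaction -3.29 ± 0.25, edgeR adjusted p = 2.92e-04). Nos1, the neuronal nitric oxide synthase, was lower in sorted cells at both times, with 2.11, 3.19 and 2.58 CPM in sorted libraries at 1 month and 0.260 and 0.306 CPM at 3 months, against 62.5, 53.6 and 63.2 CPM in tissue at 1 month and 89.0, 87.4 and 87.1 CPM at 3 months. Rgs7bp, a binding protein of a G protein regulator, was not called at 1 month (log2 difference 0.24 ± 0.10, edgeR adjusted p = 0.0702) and stood at -1.51 at 3 months (interaction 1.70 ± 0.14). Without sorted replicate 2 it was called at 1 month too (0.31, edgeR adjusted p = 0.026). The predicted gene Gm15446 had 25.8, 21.5 and 21.7 CPM in sorted libraries at 1 month and 17.7 and 15.3 CPM at 3 months. In tissue it had 0.547, 0.473 and 0.910 CPM at 1 month and 16.6, 24.3 and 19.3 CPM at 3 months. Tmem125 had 0.909 and 1.31 CPM in sorted libraries at 3 months, where it had none at 1 month. With limma and a spread per group the interactions of Nos1 and Tmem125 missed the threshold (limma adjusted p = 0.157 and 0.0526). The sorted group at 3 months holds 2 libraries.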

How the data were processed

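Libraries were made with a directional kit from TRIzol RNA, per the labels' protocols. The authors deposited whole-number read counts per gene, 1 table for sorted cells and 1 for tissue, with no normalisation. FastQC, TopHat2 2.1.0, Cufflinks 2.2.1, DESeq2 and build mm10 are named, with no role, per the submitters' processing notes. The counting program, its annotation and its strand setting are not given in the sources used here, so values of genes that overlap on opposite strands, of near-identical copies and of the 551 tested genes whose symbol has more than 1 row (the Ensembl row was used) are uncertain.

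The tables were joined by gene ID, 43468 IDs being in both. A further 225 IDs of the sorted table, which held 0.398% to 0.413% of the counts of the sorted 1 month libraries, were not analysed here. Of these, 130 lie on chromosome 8 and 82 had no match in the annotation. Names and types (coding or long non-coding) are those deposited with the counts. Exon lengths came from GENCODE M21 on GRCm38. Low genes were dropped (filterByExpr, minimum count 10). After TMM scaling the rest were tested in R 4.3.3 by quasi-likelihood (edgeR 4.0.16), on the 6 libraries for the 1 month difference and on 11 for the interaction with 3 months. The call was an adjusted p under 0.05. CPM use the TMM-scaled totals. The test was also run on simulated counts with an equal spread in both groups and few changed genes. These settings differ from the data, so that run is no check of the shared spread used here. Differences are relative to each library's total, so absolute RNA per cell is not measured.

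Alternatives were DESeq2 size factors, upper-quartile scaling, no filter, a minimum count of 50, DESeq2 1.42.0, limma 3.58.1 with a spread per group, all 17 sorted and tissue libraries, a replicate block, coding genes alone, and each library left out in turn. Each replicate held 3 mice, per the series' design text, so p-values measure the spread between pools. Intervals and floors (3 counts) cover counting error only.

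Named genes were the 10 coding genes with the largest difference in each direction at 20 CPM or more, in each list and direction the called member with the largest difference and the most abundant one (all members where 3 or fewer were called), 28 fixed markers, the 5 long non-coding genes with the largest difference in each direction at 5 CPM or more, and the 5 with the smallest interaction p. Some genes this rule names are not reported here. The lists and members were chosen with earlier results of these data known.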

Additional observations from a re-analysis of the deposited data

Results flagged for a closer look

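For 53 named genes the difference between sorted cells and tissue itself differed between 1 month and 3 months (edgeR adjusted p under 0.05 in a fit of 11 libraries). Values are log2, the 1 month difference minus the 3 month difference, so a negative value means that the gene stood lower against tissue at 1 month than at 3 months. The 2 tissue groups and the 2 sorted groups are separate libraries, and the sorted group at 3 months holds 2.

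Negative values were found for microglial and phagocyte genes, with -2.59 for C1qa, -2.07 for Aif1, -2.37 for Tyrobp, -1.93 for Tmem119, -2.19 for Ctss, -1.69 for Ctsb, -1.31 for Fabp5, -2.52 for Lyz2 and -1.59 for Cd14. Genes of immune response and antigen presentation followed, with -3.295 for Ccl3, -0.95 for Nfkbiz, -1.30 for C3, -3.62 for C2, -1.20 for Ifit3, -2.70 for Ifi27l2a, -2.10 for H2-Aa, -1.81 for H2-Eb1, -1.46 for H2-Q4, -0.79 for Tap2 and -1.50 for Tapbp. Endothelial genes had -1.71 for Egfl7, -0.89 for Itm2a and -0.80 for Flt1.

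Other negative values were -0.80 for Egr1 and -1.04 for Egr2, -0.62 for Ddit3, -1.995 for Hspb1, -0.56 for Sesn1, -1.67 for Hk2, -1.03 for Mbp, -0.66 for Rpl39, -0.999 for Rplp1, -1.34 for Malat1 and -2.68 for Neat1. Fitted values of genes with 0 to 3 counts over the sorted libraries at 1 month depend on the prior count and are no measure of size. These were -8.37 for Tmem125, -7.77 for Gm37111, -5.44 for Cd79b, -4.97 for Gm14164 and -4.19 for Gm34982.

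Positive values were 3.29 in Mki67, 2.202 in Cenpf, 1.14 in Hmgcs1, 1.05 in Ptprz1, 0.76 in Bcas1, 1.47 in B3gnt5, 1.37 in Hapln4, 0.73 in Slc1a2, 0.96 in Asns, 0.52 in Dnaja1, 0.43 in Atp5b, 3.79 in Nos1, 1.70 in Rgs7bp and 5.42 in Gm15446.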

How the results depend on the processing

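The 11805 calls at 1 month were 9718 to 12727 under other scalings, filters, tools and sets of libraries, and 9727 to 12706 with 1 library left out. With a replicate block there were 10905 calls (and 2202 for the interaction), and 1 named gene, Sesn1, lost its call, while same-numbered libraries did not deviate together (correlations -0.012, -0.013 and -0.032), so the numbers do not pair them. The count of genes at least 4-fold higher was 888 with coding genes alone, and that of genes at least 4-fold lower was 3287 with no filter on low counts. The 3256 interaction calls were 1050 with limma and a spread per group, 961 over all 17 libraries, and 1929 to 5120 with 1 library left out, the highest without sorted replicate 1 at 3 months, which leaves 1 sorted library there, assumed to vary like the others. With 1 library left out, C1qa ranged over -0.277 to 0.048 (positive without sorted replicate 1) and Col1a1 over -0.444 to 0.194 (positive without tissue replicate 2), and neither positive value was called. Of the named genes, 26 lost their 1 month call under at least 1 alternative, 15 of them on leaving out 1 library and 19 over all 17 libraries. Of 569 list medians under alternatives, 39 moved by more than the spread between replicates. No cause of these changes was tested. Fewer genes entered the fit at 1 month with coding genes alone (15562) and more with no filter (31804) than in the main fit (20522). Sorted libraries are deeper and more variable than tissue, so small differences rest on the shared spread.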
